A study of Rattus norvegicus with 12 samples.

Results

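Medium spiny neurons are the GABA-releasing projection neurons that make up most of the striatum, the forebrain nucleus that takes in dopamine from the midbrain. They form a direct pathway, whose cells carry the dopamine receptor Drd1 and the substance P precursor Tac1, and an indirect pathway, whose cells carry the dopamine receptor Drd2, the adenosine receptor Adora2a and the enkephalin precursor Penk. Both kinds hold high levels of Ppp1r1b, a phosphatase inhibitor switched by dopamine and cAMP (DARPP-32), of Rgs9, a brake on G-protein signalling, and of Pde10a, a cyclic nucleotide phosphodiesterase. These 8 genes were taken by name from the count table, where each had 1 row among 17337, to show how much striatal RNA each piece of brain tissue held. All 8 passed the filter on low counts and were among the 12850 genes tested. Penk and Tac1 are also made by neurons outside the striatum. Whether neurons outside the striatum add to the levels of the other members was not tested.

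The libraries came from brain tissue, called middle brain in the series, of 12 male Sprague-Dawley rats at postnatal day 60, with 3 rats in each of 4 groups. In the AAV-VEGFC group, rats with bile duct ligation (BDL) received an adeno-associated virus coding for vascular endothelial growth factor C, and in the AAV-GFP group ligated rats received a virus coding for green fluorescent protein, both by injection into the cisterna magna. The BDL group was ligated and had no vector listed, and the sham group had neither ligation nor vector listed. Ligation, which blocks bile flow and leads to cirrhosis, had lasted 4 weeks in the 3 ligated groups; neither the promoter of the vectors nor how the tissue was cut is stated in the labels. Levels are given in CPM, read counts scaled to a common library size and composition, and libraries are named by group and replicate number.

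Defining markers of midbrain were low or at 0 in this tissue. The 11 midbrain monoamine markers found in the table summed to between 6.1 and 11.2 CPM per library. Th, which carries out the first step in making dopamine, ran from 0.652 to 1.7 CPM, and Foxa1 and Foxa2, transcription factors of midbrain dopamine neurons, were at 0 in all 12 libraries. The 10 cortex markers summed to between 1832 and 2928 CPM. Totals were 40296297 to 51669067 counts per library. The ribosomal RNA Rn18s took 0.749% to 1.16% of counts in AAV-VEGFC and 0.43% to 1.12% in AAV-GFP libraries, against 0.181% to 0.306% in BDL and 0.137% to 0.168% in sham libraries. Sham 2 held 295 CPM of choroid plexus markers, against 4.12 to 72.3 CPM in the other 11 libraries, and AAV-GFP 1 held 99.2 CPM of hypothalamic markers, against 5.26 to 21.9 CPM in the other 11.

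Promoter sequences are shown for 3 receptors and peptides that stand for the 2 pathways. No link between these sequences and the levels was tested. RefSeq promoters (GRCr8 build, from 250 bases before to 50 after the start site) were at hand for 5 of the 8 members: Drd1, Drd2, Tac1, Rgs9 and Pde10a. The counts themselves were made on the rn6 build. Capitals mark the core of the cAMP response element (TGACG), the GC box (GGGCGG), the TATA box (TATAAA) and the E-box (CACGTG), each searched on both strands. Drd1 lies at chr17:10546354-10546653 on the + strand, Tac1 at chr4:36645333-36645632 on the + strand and Drd2 at chr8:58605153-58605452 on the + strand.
Drd1: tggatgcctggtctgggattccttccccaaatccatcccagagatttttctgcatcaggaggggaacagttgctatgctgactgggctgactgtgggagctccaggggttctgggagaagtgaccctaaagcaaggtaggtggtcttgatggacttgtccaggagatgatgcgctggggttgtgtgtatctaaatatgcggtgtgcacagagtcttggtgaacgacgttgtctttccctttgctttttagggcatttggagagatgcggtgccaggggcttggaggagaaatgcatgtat
Tac1: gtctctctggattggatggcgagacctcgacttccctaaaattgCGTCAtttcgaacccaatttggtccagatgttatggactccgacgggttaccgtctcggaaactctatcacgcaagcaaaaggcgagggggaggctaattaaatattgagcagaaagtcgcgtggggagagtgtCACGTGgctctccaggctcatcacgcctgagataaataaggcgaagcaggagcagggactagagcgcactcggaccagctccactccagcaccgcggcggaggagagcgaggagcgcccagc
Drd2: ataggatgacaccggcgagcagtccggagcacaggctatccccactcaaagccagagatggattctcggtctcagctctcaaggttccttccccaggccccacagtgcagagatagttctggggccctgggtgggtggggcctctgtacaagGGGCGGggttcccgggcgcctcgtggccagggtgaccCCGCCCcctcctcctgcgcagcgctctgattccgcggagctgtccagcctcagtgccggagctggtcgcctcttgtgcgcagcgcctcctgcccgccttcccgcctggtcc
No motif searched was found in the Drd1 window. The Tac1 window held 1 such core and 1 E-box, and the Drd2 window held 2 GC boxes. Of all 33469 promoter windows of this length, 21.2% held the core, 33.1% the GC box, 14.2% the TATA box and 6.42% the E-box. The full cAMP response element TGACGTCA, which contains the core, was in 1.83% of all windows and in none of the 5 members. These are letter matches and not measured binding sites.

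The direct-pathway genes varied among rats of the same group, most of all in AAV-GFP. Drd1 lay at 29, 33.3 and 73.3 CPM in AAV-VEGFC 1, 2 and 3, at 68.3, 11.3 and 23.5 CPM in AAV-GFP 1, 2 and 3, at 41.5, 23.5 and 42.7 CPM in BDL 1, 2 and 3, and at 33.1, 60.4 and 23.6 CPM in sham 1, 2 and 3. AAV-VEGFC 3, AAV-GFP 1 and sham 2 were the high libraries, AAV-GFP 2 was the lowest, and each group overlapped every other. Tac1 lay at 26.2, 23 and 38.3 CPM in AAV-VEGFC, at 45, 9.29 and 22.8 CPM in AAV-GFP, at 21, 12.1 and 19.9 CPM in BDL, and at 13, 28.5 and 11.6 CPM in sham 1, 2 and 3. AAV-GFP 1 and AAV-VEGFC 3 were again the 2 highest, and the 3 AAV-VEGFC libraries all lay above the 3 BDL libraries while overlapping AAV-GFP and sham.

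The indirect-pathway genes had the same high and low libraries, and Adora2a and Drd2 ran over a wider range than the direct-pathway genes. Adora2a lay at 34.9, 35.5 and 95.2 CPM in AAV-VEGFC 1, 2 and 3, at 75.1, 7.15 and 29.9 CPM in AAV-GFP 1, 2 and 3, at 31.9, 11.9 and 34.1 CPM in BDL 1, 2 and 3, and at 21.8, 47.4 and 10.5 CPM in sham 1, 2 and 3. Its highest library exceeded its lowest 13.3-fold, and AAV-GFP held both the second highest and the lowest of the 12 values. Drd2 lay at 17.4, 22.7 and 54.6 CPM in AAV-VEGFC, at 45.8, 3.63 and 17 CPM in AAV-GFP, at 19.5, 9.48 and 23 CPM in BDL, and at 15.6, 35.7 and 8.75 CPM in sham, with the same highest and lowest libraries and a 15-fold range. Penk lay at 169.9, 181 and 287 CPM in AAV-VEGFC, at 321, 51.9 and 127 CPM in AAV-GFP, at 159, 91.5 and 171 CPM in BDL, and at 134, 210.5 and 83 CPM in sham. For Penk the highest library was AAV-GFP 1 and the lowest AAV-GFP 2, a range of 6.19-fold that the other groups lay within.

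The genes shared by both pathways followed, with Pde10a the least variable. Rgs9 had the widest range of the 8, 18-fold, with 28.5, 34.6 and 111 CPM in AAV-VEGFC, 69.5, 6.15 and 31 CPM in AAV-GFP, 34.7, 17.4 and 38.2 CPM in BDL, and 26.5, 58.9 and 14.1 CPM in sham. Ppp1r1b lay at 292, 284 and 626 CPM in AAV-VEGFC, at 451, 140.2 and 278 CPM in AAV-GFP, at 245, 171 and 277 CPM in BDL, and at 222, 354 and 175 CPM in sham. The 3 AAV-VEGFC libraries lay above the 3 BDL libraries for Ppp1r1b, with 284 CPM as their lowest value against 277 CPM as the highest in BDL. Pde10a lay at 52.9, 72.9 and 161 CPM in AAV-VEGFC, at 102, 60.6 and 73.9 CPM in AAV-GFP, at 90.9, 59.4 and 89.4 CPM in BDL, and at 74.5, 112 and 70.8 CPM in sham. Its range was 3.04-fold, and it was the 1 member whose lowest library was AAV-VEGFC 1 and not AAV-GFP 2.

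**Figure D1:**
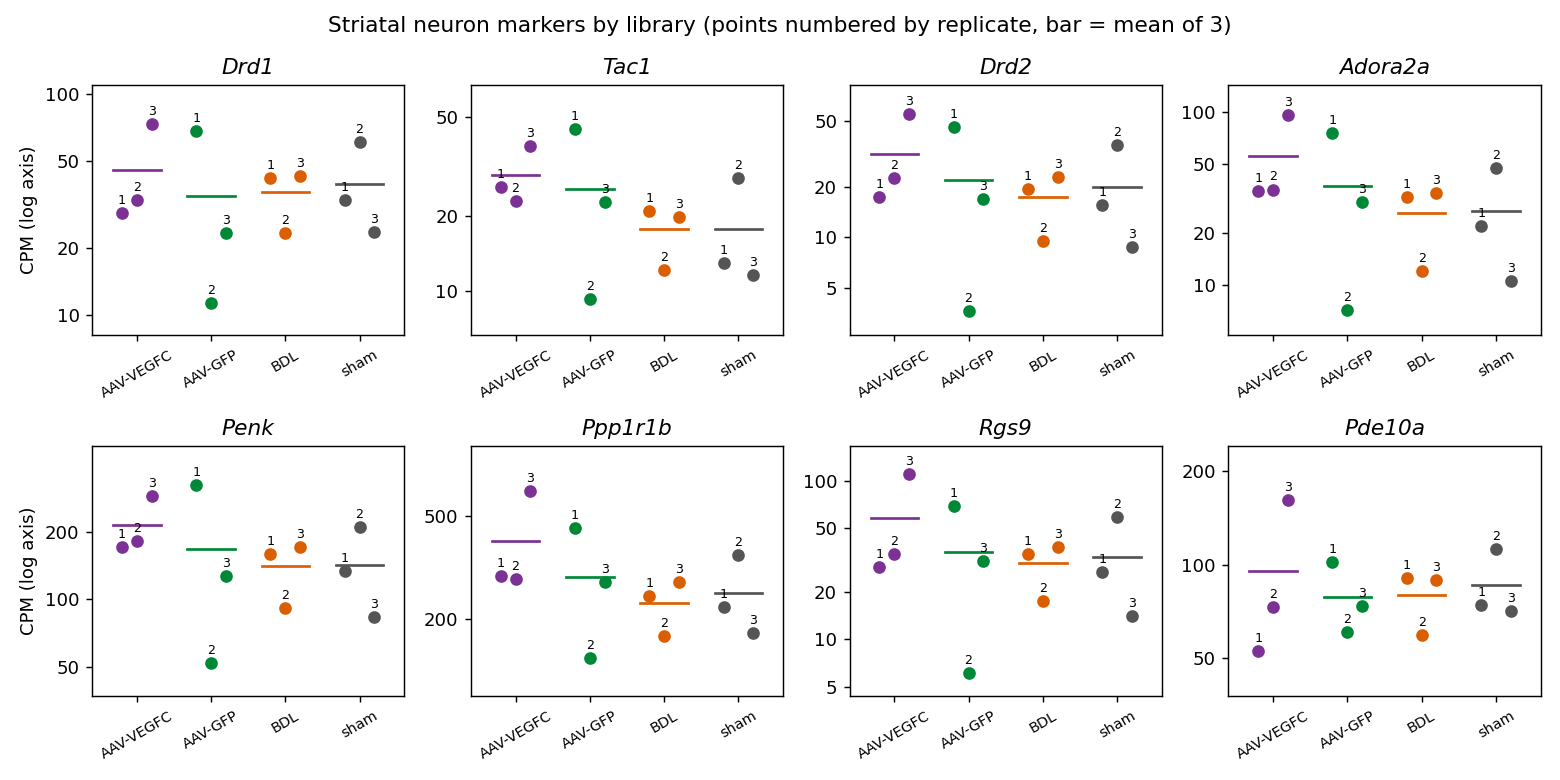
Level of each of the 8 striatal markers in CPM (log axis) in the 3 libraries of AAV-VEGFC, AAV-GFP, BDL and sham rats, with points numbered by replicate and a bar at the mean. AAV-GFP 2 is the lowest point in 7 of the 8 panels, and AAV-VEGFC 3 the highest in 6.

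Most of the spread lay among rats of the same group. Over 12 libraries the SD of log2(CPM + 1) was 1.06 for Adora2a, 1.05 for Rgs9, 1 for Drd2, 0.74 for Drd1 and Penk, 0.67 for Tac1, 0.60 for Ppp1r1b and 0.44 for Pde10a, against a median of 0.19 over the 11546 genes with a mean of at least 1 CPM. Adora2a was more variable than 99.4% of those genes and Pde10a than 94%. Differences between the 4 group means made up 2.17% (Pde10a) to 23.5% (Ppp1r1b) of a member's variance, and 43.3% in the median gene. In bulk tissue, fewer medium spiny neurons and less RNA per neuron cannot be told apart.

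The libraries of a group fell in nearly the same order for every marker. In sham, all 8 members were lowest in sham 3 and highest in sham 2, and in AAV-GFP all 8 were lowest in AAV-GFP 2 and highest in AAV-GFP 1. In BDL all 8 were lowest in BDL 2, with 6 highest in BDL 3 and 2 in BDL 1. In AAV-VEGFC all 8 were highest in AAV-VEGFC 3, with 6 lowest in AAV-VEGFC 1 and 2 in AAV-VEGFC 2. Summed over the 8 members the level was 651, 687 and 1447 CPM in AAV-VEGFC 1, 2 and 3, 1178, 290.3 and 603 CPM in AAV-GFP 1, 2 and 3, 644, 396 and 695 CPM in BDL 1, 2 and 3, and 539.9, 908 and 398 CPM in sham 1, 2 and 3. Set against the median library these were 1.01, 1.06 and 2.24 times in AAV-VEGFC, 1.82, 0.449 and 0.932 times in AAV-GFP, 0.995, 0.612 and 1.07 times in BDL, and 0.834, 1.4 and 0.615 times in sham. Ppp1r1b and Penk, the most counted members, carry most of this sum.

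Drd1 and Adora2a, 1 marker of each output pathway, varied together across libraries. Over 12 libraries Pearson's r of log2(CPM + 1) was 0.91 (permutation p = 6e-05) and Spearman's rho 0.867 (permutation p = 0.0006), and over the 28 pairs of members r lay between 0.66 and 0.994 with Benjamini-Hochberg adjusted permutation p of 3.73e-05 to 0.0189, while rho lay between 0.594 and 0.986. Without AAV-GFP 2 and AAV-VEGFC 3, the 2 libraries farthest from the median of Drd1, r was 0.817 (permutation p = 0.00178) and rho 0.77 (permutation p = 0.0126). Within the 6 AAV libraries r was 0.979 (exact permutation p = 0.00139) and within the 6 libraries without a vector it was 0.986 (exact permutation p = 0.00278). All these values share the same libraries and scaling.

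The ratio of these receptors differed between most libraries with a vector and those without. Drd1 counts divided by Adora2a counts gave 0.831, 0.937 and 0.77 in AAV-VEGFC 1, 2 and 3, and 0.909, 1.58 and 0.786 in AAV-GFP 1, 2 and 3, against 1.3, 1.97 and 1.25 in BDL 1, 2 and 3 and 1.52, 1.28 and 2.25 in sham 1, 2 and 3. Of the 6 AAV libraries 5 lay below all 6 libraries without a vector, and the exception was AAV-GFP 2. Within AAV-GFP, BDL and sham the ratio was highest in the library poorest in striatal markers (AAV-GFP 2, BDL 2 and sham 3). Drd2 counts divided by Adora2a counts lay between 0.499 and 0.641 in AAV-VEGFC and between 0.508 and 0.61 in AAV-GFP, against 0.611 to 0.795 in BDL and 0.716 to 0.834 in sham. Rn18s also parted the 6 AAV libraries from the others, as given above, and its part in these ratios was not tested. Vector, injection and any difference in handling cannot be told apart.

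**Figure D2:**
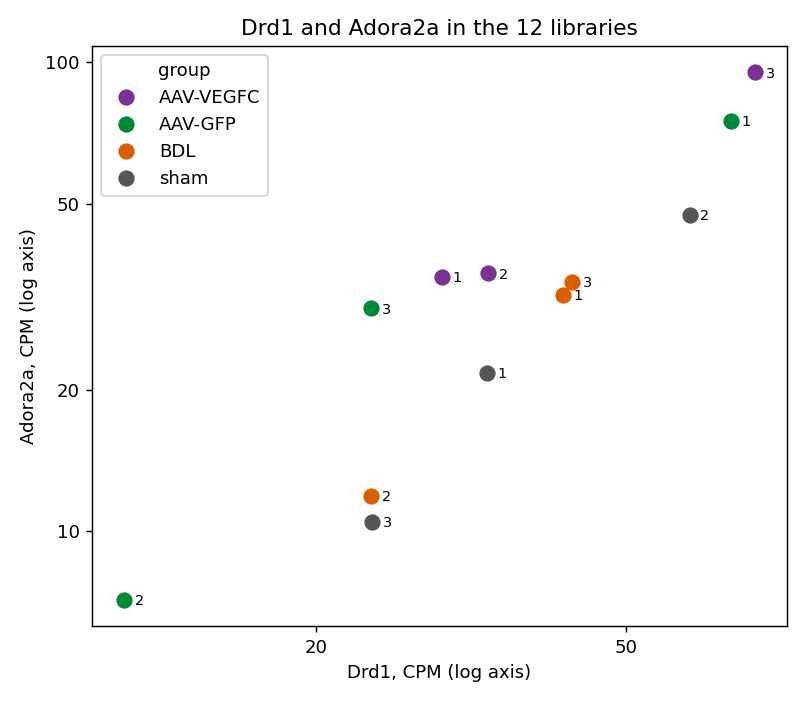
Adora2a against Drd1 in CPM (both log axes) in the 12 libraries, coloured by group and numbered by replicate. The points run from AAV-GFP 2 (11.3 and 7.15 CPM of Drd1 and Adora2a) to AAV-VEGFC 3 (73.3 and 95.2 CPM), and at like Drd1 most AAV points lie above the BDL and sham points.

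Other genes of medium spiny neurons, none of them among the 8 members, had the same highest and lowest libraries. The list was drawn up with earlier results of these data known, so the likeness is not separate support. Of 30 listed, 28 were in the table and 27 were tested. The mean of their standardized log2(CPM + 1) was highest in AAV-VEGFC 3 (1.49) and AAV-GFP 1 (1.13) and lowest in AAV-GFP 2 (-1.11), where that of the 8 members was 1.64, 1.26 and -1.75. In sham 1, 2 and 3 it was -0.40, 0.68 and -0.82, where that of the members was -0.34, 0.82 and -0.97. The measures differed more in AAV-VEGFC 1 and 2, at -0.44 and -0.14 for the other striatal genes and -0.08 and 0.14 for the members.

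Single genes of this list had a wide span of likeness to the members. Of the 26 with a mean of at least 1 CPM, 11 had an r of at least 0.9 with the mean of the members' standardized levels, against 0.208% of the 11538 genes compared. Syndig1l ran from 2.35 CPM in AAV-GFP 2 to 46.9 CPM in AAV-VEGFC 3. Six3, a transcription factor needed by Drd2 neurons of mice, ran from 0.155 CPM in AAV-GFP 2 to 5.86 CPM in AAV-GFP 1. Bcl11b, a transcription factor that cortical neurons also express, had an r of 0.01 and lay between 92.4 and 150.5 CPM. Pdyn, the dynorphin precursor of direct-pathway and many other neurons, had an r of 0.46, and Lrrc10b one of -0.08.

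Among the 10 genes most like the members over the 12 libraries, by Pearson's r with their mean standardized level, were Adcy5 (0.984), Syndig1l (0.976), Asic4 (0.975), Rasgrp2 (0.962), Pde1b (0.956), Gpr6 (0.943), Nexn (0.941), Kremen1 (0.94) and Slc35d3 (0.937). Asic4, Nexn and Kremen1 were not on the list of striatal genes. Adcy5, the main adenylyl cyclase of striatum, lay between 156 and 372 CPM, and its lowest and highest libraries were AAV-GFP 2 and AAV-VEGFC 3. Asic4, an ion channel family member, lay between 9.25 and 39.1 CPM and Kremen1, a receptor for Dickkopf inhibitors of Wnt signalling, between 4.62 and 21.2 CPM, with the same extreme libraries. Nexn, an actin-binding protein gene, was lowest in AAV-GFP 2 (1.84 CPM) and highest in sham 2 (9.27 CPM).

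Markers of neighbouring regions differed among some of the same libraries. The 5 hippocampus markers summed to 143, 93.8 and 80.3 CPM in AAV-VEGFC 1, 2 and 3, to 72.3, 192 and 153 CPM in AAV-GFP 1, 2 and 3, to 127, 125 and 126 CPM in BDL, and to 114, 91.2 and 117 CPM in sham. The hippocampal sums of BDL were nearly equal while its striatal sums ran over 644, 396 and 695 CPM. The 11 thalamus markers varied little, between 357 and 461 CPM over all libraries. AAV-GFP 2, the library poorest in striatal markers, had the highest hippocampus and cortex sums (2928 CPM over 10 cortex markers). Of that cortex sum, 2029 CPM came from Slc17a7 alone. AAV-GFP 1 had the lowest hippocampus sum. BDL 2, the BDL library poorest in striatal markers, had the lowest cortex sum of BDL (2265 CPM, against 2362 and 2276 CPM in BDL 1 and 3), and sham 3, the poorest of sham, a sum of 2312 CPM between those of sham 1 and 2. The 7 markers of basal forebrain cholinergic neurons, a cell type found in and beside the striatum, summed to 16, 13.7 and 22.4 CPM in AAV-VEGFC, 21.3, 6.86 and 16.5 CPM in AAV-GFP, 16.6, 10.6 and 16.8 CPM in BDL, and 13, 25.2 and 9.92 CPM in sham. These were lowest in the libraries with the least striatal RNA of the AAV-GFP, BDL and sham groups. Gad1, a GABA-synthesizing enzyme of all inhibitory neurons, lay between 229 CPM in AAV-VEGFC 1 and 448 CPM in AAV-VEGFC 3. AAV-VEGFC 1 also had the most oligodendrocyte RNA (19001 CPM over 7 markers, against 11263 to 14946 CPM in the other libraries) and the lowest sum of 10 pan-neuronal markers (6426 CPM).

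**Figure D3:**
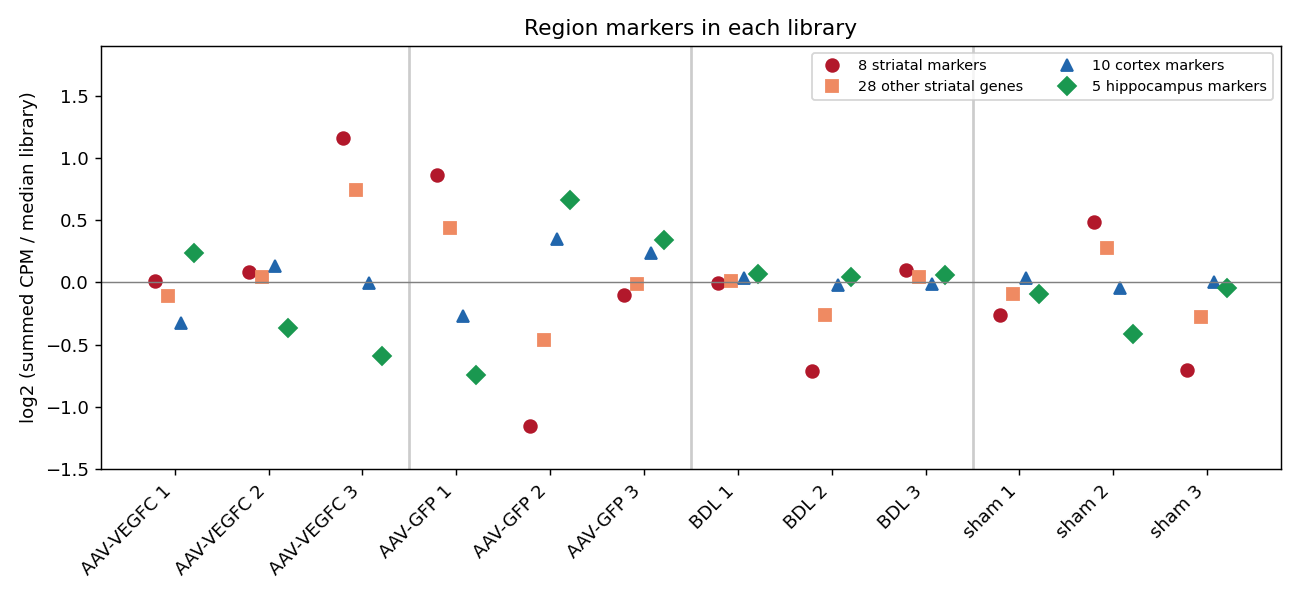
Summed CPM of 4 marker lists in each library, as log2 of the ratio to the median library, with AAV-VEGFC left and sham right. The 8 striatal markers and the 28 other striatal genes are both highest in AAV-VEGFC 3 and lowest in AAV-GFP 2, and the 5 hippocampus markers are highest in AAV-GFP 2 and lowest in AAV-GFP 1.

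BDL against sham addressed what ligation does to the brain, and no difference in a striatal marker exceeded the spread between rats. Of the 8 members 0 passed an adjusted p of 0.05 (edgeR, quasi-likelihood, Benjamini-Hochberg over all genes), where 0.109% of all genes passed. At an unadjusted p under 0.05 there were also 0, against 5.9% of all genes, and DESeq2 and limma voom called 0. Drd1 averaged 35.9 ± 10.8 CPM in BDL and 39.1 ± 19.1 CPM in sham (SD, n = 3 each), a log2 fold change of -0.12 ± 0.59 (SE, edgeR adjusted p = 1), and Adora2a averaged 26 ± 12.2 and 26.6 ± 18.9 CPM (-0.03 ± 0.77). The median log2 fold change of the members was -0.11, beside 0.01 over all genes. The groups overlapped for all 8, while they did not for 25% of all genes. All 8 estimates were below 0, and all 8 turned positive without sham 2 (0.14 to 0.68) or without BDL 2 (0.06 to 0.31), so 1 library decided the sign.

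AAV-GFP against BDL addressed the vector and its injection. Again 0 of 8 members passed, where 6.19% of all genes did, with 0 at an unadjusted p under 0.05 (20.7% of all genes) and 0 by DESeq2 or limma voom. Adora2a averaged 37.4 ± 34.6 CPM in AAV-GFP and 26 ± 12.2 CPM in BDL (log2 fold change 0.53 ± 0.77, edgeR adjusted p = 0.746), and Tac1 25.7 ± 18 and 17.7 ± 4.87 CPM (0.54 ± 0.50, adjusted p = 0.588). Drd1 averaged 34.4 ± 30.0 and 35.9 ± 10.8 CPM (-0.06 ± 0.59). The median over members was 0.29, beside 0.01 over all genes, with 6 estimates above 0 and 2 below. The groups overlapped for all 8, against 38.1% of genes for which they did not. Without AAV-GFP 1 Adora2a was at -0.49 and Penk at -0.65, and without AAV-GFP 2 they were at 1.01 and 0.68.

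AAV-VEGFC against AAV-GFP addressed what VEGFC adds to the vector. Of the 8 members 0 passed, where 0.00778% of all genes did, with 0 at an unadjusted p under 0.05 (4.37% of all genes) and 0 by DESeq2 or limma voom. Rgs9 averaged 58 ± 45.9 CPM in AAV-VEGFC and 35.6 ± 31.9 CPM in AAV-GFP (log2 fold change 0.70 ± 0.78, edgeR adjusted p = 0.952), and Ppp1r1b 401 ± 195 and 289.5 ± 156 CPM (0.47 ± 0.43, adjusted p = 0.948). All 8 estimates were above 0 with a median of 0.43, beside 0.01 over all genes, and the groups overlapped for all 8, where 6.06% of all genes did not overlap. Without AAV-VEGFC 3, the library richest in striatal markers, 7 of the 8 estimates were below 0 and Penk was above it, with Adora2a at -0.087. Without AAV-GFP 1 the estimates moved the other way, with Adora2a at 1.57 and Rgs9 at 1.64.

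AAV-VEGFC against BDL set the treated rats beside ligated rats with no vector, and shares its libraries with the 2 comparisons before. The members' median difference was larger than in the other comparisons, and again 0 of 8 members passed, where 9.93% of all genes did, with 0 at an unadjusted p under 0.05 (29.2% of all genes) and 0 by DESeq2 or limma voom. Ppp1r1b averaged 401 ± 195 CPM in AAV-VEGFC and 231 ± 54.4 CPM in BDL (log2 fold change 0.80 ± 0.43, edgeR adjusted p = 0.242), Adora2a 55.2 ± 34.6 and 26 ± 12.2 CPM (1.09 ± 0.77, adjusted p = 0.378), and Tac1 29.2 ± 8.08 and 17.7 ± 4.87 CPM (0.72 ± 0.50, adjusted p = 0.365). For these 3 members the groups did not overlap, with AAV-VEGFC higher, as for 14.6% of all genes (32.9% in either direction). The median of the members was 0.76, beside 0 over all genes. Without AAV-VEGFC 3, Ppp1r1b was at 0.32, Adora2a at 0.44 and Rgs9 at 0.07. With another single library left out, they reached at most 0.99, 1.33 and 1.27.

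The other striatal genes did not pass either, nor did a list of dopamine receptors, cAMP signalling genes and the opioid and tachykinin receptors of the peptides these neurons make. Adcy5, Gnal, Gng7 and Pde1b stand in both lists. Of 27 tested striatal genes and 22 tested genes of the second list, 0 passed an adjusted p of 0.05 in any of the 4 comparisons, where 9.93% (AAV-VEGFC against BDL), 0.00778% (AAV-VEGFC against AAV-GFP), 6.19% (AAV-GFP against BDL) and 0.109% (BDL against sham) of all genes did. At an unadjusted p under 0.05 there were 1 of 27 and 3 of 22 in AAV-VEGFC against BDL, a smaller share than the 29.2% of all genes. In the other comparisons there were 0 of either list, where 4.37% (AAV-VEGFC against AAV-GFP), 20.7% (AAV-GFP against BDL) and 5.9% (BDL against sham) of all genes lay under it. In AAV-VEGFC against BDL, Bcl11b averaged 109 ± 21.9 CPM in AAV-VEGFC and 143 ± 8.46 CPM in BDL (log2 fold change -0.39 ± 0.12, edgeR adjusted p = 0.0561). Ppp1ca, the catalytic subunit of the phosphatase that DARPP-32 inhibits, averaged 322 ± 73.1 and 243 ± 8.62 CPM (0.41 ± 0.13, adjusted p = 0.065), and Oprm1, the mu opioid receptor that binds enkephalins, 2.04 ± 0.554 and 3.71 ± 0.563 CPM (-0.86 ± 0.28, adjusted p = 0.0695). In BDL against sham the smallest p of each list belonged to Bcl11b (0.16 ± 0.12) and to Tacr1, the receptor of substance P (0.38 ± 0.20, adjusted p = 0.933).

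A fit that carried the level of the 27 other striatal genes as a covariate, added after the data had been seen, narrowed the errors of the members. Their SE lay between 0.09 and 0.26 in it, against 0.37 to 0.78 without it. The covariate is measured in the same libraries and can take up part of a group's effect. Its genes are of the same neurons, were listed with earlier results of these data known, and had the same extreme libraries as the members. Narrower errors were therefore built in. In AAV-VEGFC against BDL Ppp1r1b then passed (log2 fold change 0.45 ± 0.09, edgeR adjusted p = 0.0153), 1 of 8 members where 10.5% of all genes passed. In the other comparisons 0 members passed, where 0.109% (BDL against sham), 6.42% (AAV-GFP against BDL) and 0.00778% (AAV-VEGFC against AAV-GFP) of all genes did. Drd1 was at -0.45 ± 0.15 in AAV-GFP against BDL (adjusted p = 0.0979) and at -0.12 ± 0.15 in AAV-VEGFC against BDL, beside 0.04 ± 0.26 and 0.59 ± 0.26 for Adora2a. In BDL against sham Drd1 was at -0.14 ± 0.14 and Adora2a at -0.018 ± 0.26. In AAV-VEGFC against AAV-GFP 7 of the 8 estimates stayed above 0 with the covariate, among them Adora2a at 0.55 ± 0.26, Rgs9 at 0.53 ± 0.22 and Ppp1r1b at 0.30 ± 0.09, and Pde10a was at -0.018 ± 0.15. None of these passed (edgeR adjusted p of 0.924 for the first 3), and without AAV-VEGFC 3, in the fit with no covariate, 7 of the 8 were below 0 as given above.

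**Figure D4:**
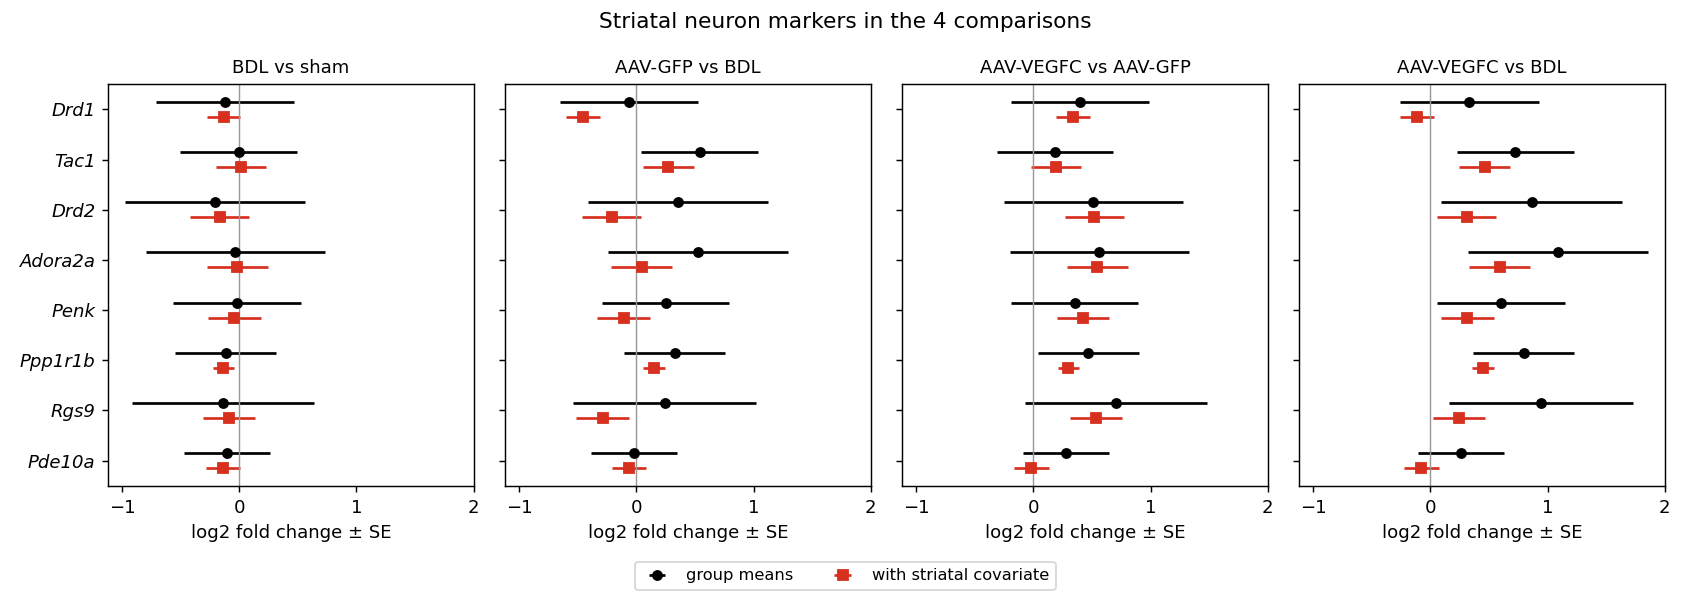
Log2 fold change ± SE of the 8 members in the 4 comparisons, from the fit of group means (black circles) and from the fit with the striatal covariate (red squares). Errors run from 0.37 to 0.78 in black and from 0.09 to 0.26 in red, and no black point passed an adjusted p of 0.05.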

How the data were processed

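Per the labels, RNA was taken from flash-frozen brain with Trizol and made into TruSeq libraries. Per the submitters' processing notes, FastQC, Trimmomatic 0.36, HISAT2 and featureCounts were used with the rn6 build; the sources used here do not state settings, annotation or strandedness, so overlapping or antisense genes cannot be told apart. Unnormalized counts by gene symbol were deposited in 12 files, 11 of 1 library and 1 of all 12; the last was used. The table has 17337 rows and 17335 distinct names. Replicates of a group differed beyond sampling noise (chi-square per degree of freedom 11.6 to 227).

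CPM were computed from the deposited counts with TMM factors. Genes passing filterByExpr (12850) were fitted in R 4.3.3 with edgeR 4.0.16, all 12 libraries together with 1 mean per group, and quasi-likelihood tests were adjusted by Benjamini-Hochberg over all genes. SE came from the fold change and the F statistic. Scripts were tested on simulated data. Correlations used log2(CPM + 1) and 100000 resamples (scipy 1.17.1), or all orders with 6 libraries. Alternatives used DESeq2 1.42.0 and limma 3.58.1, where voom was always run with quality weights, so that libraries did not count equally. Standardized levels are log2(CPM + 1) minus the gene's mean over libraries, divided by its SD. Genes named besides the 8 members were the 10 most like them, the 2 of each striatal or pathway list with the smallest p in a comparison, of which some are given, and Slc17a7, Gad1, Chat, Th, Oxt, Ttr, Mbp and Rn18s; 1 of the 10 is not reported here, and Six3, Lrrc10b, Foxa1 and Foxa2 were named after their values were seen. Members and lists were chosen with earlier results of these data known.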

Additional observations from a re-analysis of the deposited data

How the results depend on the processing

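The number of striatal markers called was 0 in each of the 4 comparisons and in 59 of 60 alternatives; the exception was 1 (Ppp1r1b, AAV-VEGFC against BDL, striatal covariate). Directions were less firm: of 480 alternative values of the 8 members' log2 fold changes, 72 had the opposite sign and 1 passed the threshold. The cause was not tested. With 1 library left out, BDL against sham ran from -0.41 to 0.68 for Adora2a, -0.38 to 0.34 for Drd1, -0.56 to 0.51 for Drd2, -0.32 to 0.22 for Ppp1r1b, -0.29 to 0.37 for Penk, -0.23 to 0.52 for Tac1, -0.50 to 0.57 for Rgs9 and -0.22 to 0.14 for Pde10a. AAV-GFP against BDL ran from -0.49 to 1.01 (Adora2a), -1.05 to 0.35 (Drd1), -0.75 to 0.86 (Drd2), -0.15 to 0.66 (Ppp1r1b), -0.65 to 0.68 (Penk), -0.14 to 0.94 (Tac1), -0.70 to 0.74 (Rgs9) and -0.25 to 0.14 (Pde10a). AAV-VEGFC against AAV-GFP ran from -0.087 to 1.57 (Adora2a), -0.14 to 1.38 (Drd1), -0.14 to 1.61 (Drd2), -0.0082 to 0.94 (Ppp1r1b), -0.075 to 1.25 (Penk), -0.21 to 0.86 (Tac1), -0.17 to 1.64 (Rgs9) and -0.32 to 0.57 (Pde10a), and AAV-VEGFC against BDL from -0.21 to 0.57 for Drd1 and -0.34 to 0.55 for Pde10a. Under limma voom with its quality weights, signs turned in BDL against sham for Adora2a (0.14), Penk (0.085), Tac1 (0.12) and Rgs9 (0.087). In AAV-GFP against BDL they turned for Adora2a (-0.087), Drd2 (-0.40), Penk (-0.34) and Rgs9 (-0.39). With the striatal covariate they turned for Tac1 (0.014) in BDL against sham, for Drd2 (-0.21), Penk (-0.11) and Rgs9 (-0.29) in AAV-GFP against BDL, for Pde10a (-0.018) in AAV-VEGFC against AAV-GFP, and for Drd1 (-0.12) and Pde10a (-0.079) in AAV-VEGFC against BDL. Signs also turned with sham 2, AAV-GFP 1 and AAV-VEGFC 1 left out together, also chosen after seeing the data. Sham 2 and AAV-GFP 1 were the highest of their groups for all 8 members, and AAV-VEGFC 1 the lowest of its group for 6. Leaving them out therefore had to raise BDL over sham and AAV-VEGFC over AAV-GFP, and lower AAV-GFP against BDL. BDL against sham then gave 0.68 (Adora2a), 0.34 (Drd1), 0.50 (Drd2), 0.22 (Ppp1r1b), 0.37 (Penk), 0.52 (Tac1), 0.56 (Rgs9) and 0.14 (Pde10a). AAV-GFP against BDL gave -0.49 (Adora2a), -0.74 (Drd2), -0.15 (Ppp1r1b), -0.65 (Penk), -0.14 (Tac1) and -0.69 (Rgs9). In AAV-VEGFC against AAV-GFP all 8 stayed above 0, from 0.80 (Pde10a) to 1.96 (Rgs9). None passed there, and the smallest edgeR adjusted p was 0.0566 (Drd1). Because the choice of libraries set the direction, these values are no test of VEGFC.

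All genes called numbered 14 in BDL against sham (12 to 17 with 1 library left out, 108 with DESeq2, 347 with limma voom, 332 with the compared groups alone, 209 without the 3 libraries), 795 in AAV-GFP against BDL (386 to 859, 1485, 4687, 2023 and 3646 in that order), 1 in AAV-VEGFC against AAV-GFP (0 to 22, 10, 1, 0 and 1193) and 1276 in AAV-VEGFC against BDL (586 to 2284, 2347, 2488, 330 and 3123). The replicate number did not pair the libraries (r of same-numbered deviations -0.12 to 0.14; 0, 4, 2 and 2 of 6 libraries were closest to their own number in these comparisons). With the replicate block the counts were 12, 550, 0 and 905 genes and 0 striatal markers each. The summed level relative to the median library moved by less than 1 SD of its group under other scalings and without Penk and Tac1. That bound is loose where a group spreads widely, as AAV-GFP does with 1.82, 0.449 and 0.932 times the median library. Without Penk and Tac1, AAV-VEGFC 3 went from 2.24 to 2.44 times and AAV-GFP 2 from 0.449 to 0.499 times. Between Drd1 and Adora2a, r was 0.976 after group means were removed (permutation p = 2e-05, the smallest these resamples can give), and 0.907 on total counts. The permutation after removal of group means shuffled all 12 libraries and not those within a group, so its p is not exact.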

Other observations

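Other ratios of members, computed from counts within a library, gave the following values. Drd1 divided by Drd2 lay between 1.34 and 1.67 in AAV-VEGFC and between 1.38 and 3.12 in AAV-GFP, against 1.86 to 2.48 in BDL and 1.7 to 2.7 in sham; the 3.12 belonged to AAV-GFP 2, which had 164 counts of Drd2. Tac1 divided by Penk lay between 0.127 and 0.154 in AAV-VEGFC and between 0.14 and 0.179 in AAV-GFP, against 0.116 to 0.133 in BDL and 0.0973 to 0.14 in sham. Ppp1r1b divided by Adora2a was 19.6 in AAV-GFP 2, 14.3 in BDL 2 and 16.7 in sham 3, the libraries of those groups with the lowest striatal sums, and lay between 6 and 10.2 in the other 9 libraries. No test was run on these ratios.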
